A study of Homo sapiens with 3 samples.

Results

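The 10 genes described here are immediate-early genes and feedback genes of the mitogen-activated protein kinase (MAPK) pathway, EGR1, FOS, FOSB, JUNB, ARC, IER2, IER3, DUSP4, SPRY4 and ETV4. They were taken as every row of the deposited table named for 1 of these symbols, 23 probe sets in all, out of 14884 named genes. The list was drawn up with results of these arrays in view, so the genes count as selected on their ratios to control, and the values below describe these arrays and test nothing. Expression was measured in BE(2)-C, a clonal human neuroblastoma cell line with amplified MYCN, on Affymetrix HuGene-2_0-st arrays. The 3 groups were cells given WDR5 siRNA-1, cells given WDR5 siRNA-2 and cells given a control siRNA, each for 40 hours in medium with fetal calf serum, with 1 array per group. WDR5 is a scaffold protein shared by the enzyme complexes that place methyl groups on lysine 4 of histone H3. Without replicates no value carries an error, no p-value can be given, and every ratio sets 1 array against another. Both WDR5 siRNAs were set against the same control array.

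Immediate-early genes are transcribed within minutes of a growth factor or, in neurons, of synaptic activity, without new protein synthesis. The signal runs from receptor tyrosine kinases through RAS, RAF, MEK and ERK to factors already bound at the promoters, among them SRF with its ETS partners at CArG boxes and CREB at cyclic AMP response elements (CRE). ERK also induces its own brakes, the dual-specificity phosphatases (DUSP) and the Sprouty proteins, and ETS factors of the ETV4 family.

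The knockdown was visible in the targeted transcript: WDR5 stood at a log2 level of 7.90 with WDR5 siRNA-1 and 7.90 with WDR5 siRNA-2, against 9.46 with the control siRNA, 2.95-fold lower with either siRNA. The deposited value was exactly the same on both WDR5 siRNA arrays. It also lay inside the background range given below, so the size of the fold is uncertain. The deposited values, read as log2, ran from 1.34 to 14.9, and the array medians were 5.79, 5.79 and 5.81 for siRNA-1, siRNA-2 and control. The 23 background rows of the array spanned 1.75 to 9.26, so a level by itself does not say whether a transcript was above background. SPRY4 alone stood above that range on every array, EGR1 and JUNB did so with both WDR5 siRNAs and DUSP4 with siRNA-1. On the control array 9 of the 10 were inside it, which leaves the size of their fold to control uncertain. Of the 10 genes, 9 lay at or above 6.78, the median level of the named genes. FOSB lay below it. Of the adrenergic neuroblastoma markers, 13 of 16 listed were measured, all of them at or above that median, with a mean level of 10.3 with siRNA-1, 10.6 with siRNA-2 and 10.4 with control. Of these 13, 6 lay on opposite sides of control with the WDR5 siRNAs. Among them, named after their values were seen, DBH had 9.58, 10.9 and 10.4 and CHGA had 10.4, 11.6 and 10.9 in the same order. Schwann and stromal markers (5 measured) had mean levels of 7.06, 6.91 and 6.74, with 3 at or above that median, and leukocyte and endothelial markers (6 measured) of 5.89, 5.91 and 5.71, with 1. The stromal marker LUM, at 10.4, 9.86 and 8.88, and the endothelial marker PECAM1, at 4.88, 5.12 and 4.29, were at least 1.5-fold higher with both WDR5 siRNAs. Of the other markers on these lists, S100B, SOX10 and DCN, and CD163, CSF1R and VWF, were tied on all arrays. ERBB3 had 6.30, 6.11 and 6.26, CD68 had 8.14, 7.83 and 7.75, and CD14 had 5.66, 5.81 and 5.53. The samples were cultures of a clonal cell line, and PECAM1 lay inside the background range on every array. The source of the LUM and PECAM1 signal was not tested.

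Promoter sequence was at hand in the RefSeq table (GRCh38.p14) for 6 of the 10 genes, and the last 150 bases before the transcription start are shown for each because motifs of the factors named above fall there. All run 5′ to 3′ on the gene's strand, and capitals mark CArG boxes and the CRE core, TGACG or its complement CGTCA. The windows are chr5:138465329-138465478 (plus strand) for EGR1, chr14:75278678-75278827 (plus) for FOS, chr19:45467846-45467995 (plus) for FOSB, chr19:12791336-12791485 (plus) for JUNB, chr19:13150261-13150410 (plus) for IER2 and chr5:142324248-142324397 (minus) for SPRY4. The start used for SPRY4 lies inside the annotated span of the gene and is not its outermost start.
EGR1: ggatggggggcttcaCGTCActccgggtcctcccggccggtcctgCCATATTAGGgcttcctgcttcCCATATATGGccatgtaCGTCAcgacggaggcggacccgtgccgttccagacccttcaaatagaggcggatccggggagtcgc
FOS: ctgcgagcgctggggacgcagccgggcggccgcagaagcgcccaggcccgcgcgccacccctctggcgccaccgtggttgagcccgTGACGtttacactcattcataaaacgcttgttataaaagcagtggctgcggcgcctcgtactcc
FOSB: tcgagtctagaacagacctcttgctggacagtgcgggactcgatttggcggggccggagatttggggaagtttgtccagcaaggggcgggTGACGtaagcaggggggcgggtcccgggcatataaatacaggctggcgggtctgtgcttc
JUNB: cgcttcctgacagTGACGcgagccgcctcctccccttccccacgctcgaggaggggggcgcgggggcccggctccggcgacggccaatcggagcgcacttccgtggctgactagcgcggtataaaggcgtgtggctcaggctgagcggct
IER2: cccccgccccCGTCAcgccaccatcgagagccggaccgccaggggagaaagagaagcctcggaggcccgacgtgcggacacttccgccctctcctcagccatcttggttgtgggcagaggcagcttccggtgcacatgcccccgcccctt
SPRY4: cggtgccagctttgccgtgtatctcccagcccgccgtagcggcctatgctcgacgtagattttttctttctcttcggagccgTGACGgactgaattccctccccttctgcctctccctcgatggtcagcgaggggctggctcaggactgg

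All 6 promoters held the CRE core in the 250 bases upstream, searched on both strands, and 21.2% of the 35116 promoters in the table did so in a window of the same length. The 7 matches lay between 140 and 56 bases before the start. EGR1 had 2 of them, and between these stood 2 CArG boxes, at 105 to 96 and at 83 to 74 bases before the start. A CArG box was found in 1.16% of all promoters and in none of the other 5 members' windows. Bases further upstream than 250 were not searched, so a box there would be missed. The ETS core was searched only as CCGGAA, and shorter forms such as GGAA were not searched. CCGGAA was found in FOSB (205 to 200 bases upstream) and IER2 (26 to 21), and in 14.5% of all promoters. The full CRE (TGACGTCA, in 1.65% of all promoters and always holding the CRE core), the AP-1 site TGANTCA (6.57%) and the EGR site (GCGTGGGCG or GCGGGGGCG, 5.37%) had no match in the 6 windows. These matches are letters in a window, not measured binding.

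**Figure D1:**
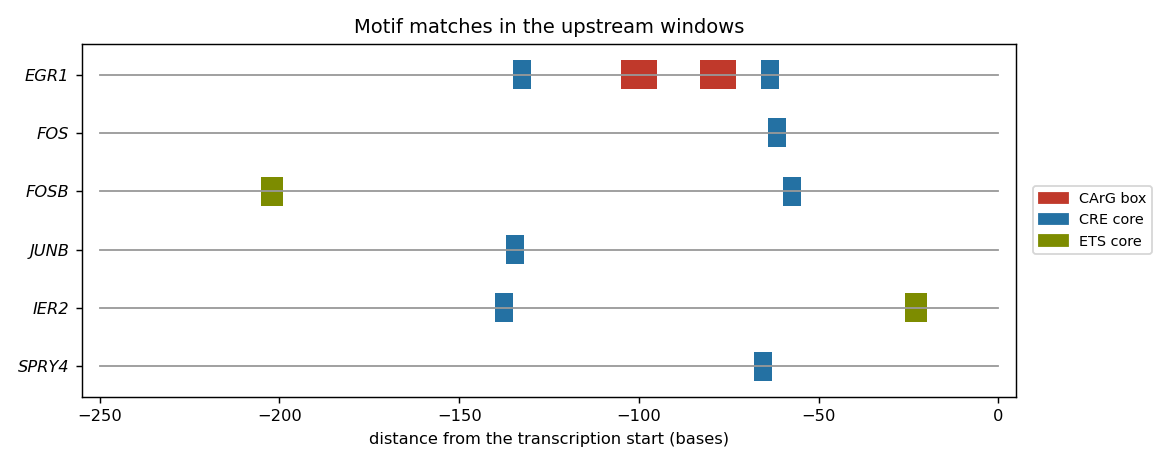
Motif matches in the 250 bases before the transcription start of the 6 members with a promoter in the table; the horizontal axis is the distance from the start in bases. Every promoter has a CRE core (blue), and only EGR1 has CArG boxes in this window (red, 2). FOSB and IER2 each have 1 ETS core (green), searched as CCGGAA only.

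EGR1 encodes a zinc finger transcription factor that is commonly read as a reporter of ERK signalling to SRF. Its level was 9.98 with WDR5 siRNA-1 and 9.84 with WDR5 siRNA-2, against 7.93 with the control siRNA. Both WDR5 siRNA arrays were thus high and close to each other, and the control array was low. The ratio was 4.15-fold with siRNA-1 and 3.78-fold with siRNA-2, and its smaller ratio ranked second highest among the 14884 named genes. The highest was a microRNA gene with levels of 3.73, 3.69 and 1.74, below the median level. A second EGR1 probe set stood at 5.84, 5.55 and 5.48 in the same order, a ratio of 1.28-fold and 1.05-fold, and the mean of both probe sets gave log2 ratios of 1.21 and 0.99. The control array's 7.93 was below the highest background row, at 9.26, and both WDR5 siRNA arrays were above it. Of the 20 named genes closest to that second probe set in identifier order on the chromosome, 19 lie on the minus strand, whereas EGR1 and 19 of the 20 genes around its first probe set lie on the plus strand. Which strand a probe set reads is not given in the sources used here.

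The AP-1 factors differed among themselves. JUNB, an AP-1 subunit that often restrains JUN, stood at 9.56 with siRNA-1 and 9.73 with siRNA-2, against 8.78 with control, which makes it 1.71-fold and 1.94-fold higher, the control level again being inside the background range. FOSB stood at 6.68 and 6.78 with the WDR5 siRNAs and at 6.44 with control (1.18-fold and 1.26-fold higher), all near or below the median level of named genes. Its second probe set gave 6.15 on all 3 arrays. FOS, the partner that forms the classical AP-1 dimer with JUN, had the same deposited value, 6.97, on all 3 arrays, and its second probe set had 6.34 on all 3. An exact tie of this kind was found in 34.5% of the named genes, and in 14.9% of those at or above the median level, so it shows only that the deposited summary did not separate the arrays. As with EGR1, the second probe sets of FOS and FOSB lay among minus-strand genes (18 and 20 of 20), although both genes are on the plus strand.

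Among the other immediate-early genes, ARC, which encodes a synaptic cytoskeletal protein that is induced in active neurons, had levels of 7.72 with siRNA-1, 8.05 with siRNA-2 and 7.24 with control. It was 1.39-fold and 1.75-fold higher, so it passed 1.5-fold with siRNA-2 only. IER2, a small nuclear protein gene, was tied at 7.44 on all 3 arrays. IER3, a stress and survival gene of the same early class, was read by 11 probe sets that held only 4 different sets of values. In 5 of them the levels were 7.30, 7.30 and 7.42 for siRNA-1, siRNA-2 and control, 1.08-fold lower with each WDR5 siRNA. A further 4 were tied at 7.02 on all arrays and 1 at 7.12, and the remaining probe set had 6.65, 6.69 and 6.69. None of the 11 was higher than control with either siRNA. The 5 probe sets with the lower value lay among plus-strand genes (16 to 20 of the 20 nearest) and the other 6 among minus-strand genes (15 to 20 of 20). The strand of IER3 itself was not compared with these. IER3 lies in the major histocompatibility complex on chromosome 6, for which the human assembly holds alternative copies.

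The feedback genes differed between the siRNAs. DUSP4, a nuclear phosphatase that switches off ERK, stood at 9.42 with WDR5 siRNA-1 and 8.76 with WDR5 siRNA-2, against 8.51 with control, a ratio of 1.88-fold and 1.19-fold. The siRNA-1 array stood apart from the other 2, which were both inside the background range. SPRY4, an inhibitor of receptor signalling to RAS, had levels of 10.1, 10.4 and 9.81 in the same order, 1.21-fold and 1.4997-fold higher, the second just short of the 1.5-fold limit. ETV4, an ETS factor gene that ERK signalling induces in many tissues, stood at 8.33 with siRNA-1 and 8.99 with siRNA-2, against 8.65 with control. The control array lay between them, and the ratio to it was 1.24-fold downward for siRNA-1 but 1.27-fold upward for siRNA-2.

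**Figure D2:**
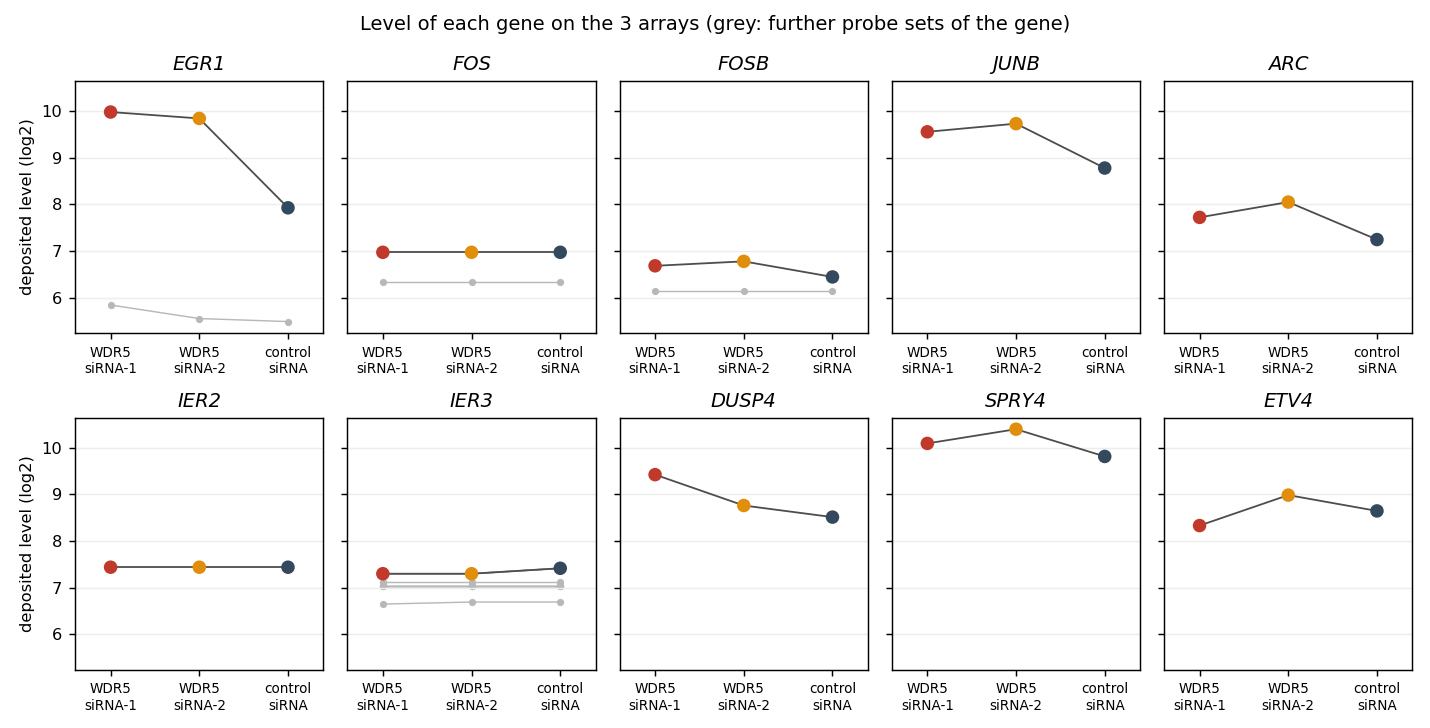
Deposited log2 level of each gene with WDR5 siRNA-1 (red), WDR5 siRNA-2 (orange) and control siRNA (dark blue), 1 array each, lines joining the arrays of 1 probe set and grey marking further probe sets. EGR1 (9.98, 9.84 and 7.93) and JUNB (9.56, 9.73 and 8.78) are high with both WDR5 siRNAs, FOS and IER2 are tied on all arrays, and DUSP4 is high with siRNA-1 alone; levels of different genes are not comparable.

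Of the 10 genes, 2 (EGR1 and JUNB) were at least 1.5-fold higher than control with both WDR5 siRNAs, while 0.356% of all named genes and 0.618% of those at or above the median level were. With siRNA-1 there were 3 (EGR1, JUNB and DUSP4; 1.55% of all named genes), and with siRNA-2 also 3 (EGR1, JUNB and ARC; 1.34%). None was 1.5-fold lower with siRNA-1, with siRNA-2 or with both, against 2.77%, 2.37% and 0.571% of all named genes. Higher by any amount with both were 6 members, against 13.0% of all named genes, and lower with both was 1, IER3, against 15.3%. Among the 7442 genes at or above the median level, 1343 were higher and 1658 lower with both. IER3 was lower with both in 5 of its 11 probe sets, including the 1 that represents the gene, and not in the others. These 5 held identical values and lay among plus-strand genes. Whether they read the strand of IER3 was not determined. Since the members were chosen on these ratios, the counts are set beside the background for size only. Their median log2 ratio was 0.26 with siRNA-1 and 0.34 with siRNA-2 (0.24 and 0.33 without EGR1), and that of all named genes was 0 with each.

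Set directly against each other, siRNA-1 gave a DUSP4 level 1.58-fold higher than siRNA-2 did and an ETV4 level 1.57-fold lower. These were the 2 members at least 1.5-fold apart, 1 in each direction, against 2.63% of named genes higher and 2.80% lower. The EGR1 level with siRNA-1 exceeded that with siRNA-2 by 1.10-fold, whereas FOSB, JUNB, ARC and SPRY4 were lower with siRNA-1, by 1.07-fold to 1.26-fold. FOS, IER2 and IER3 had equal values with both WDR5 siRNAs.

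**Figure D3:**
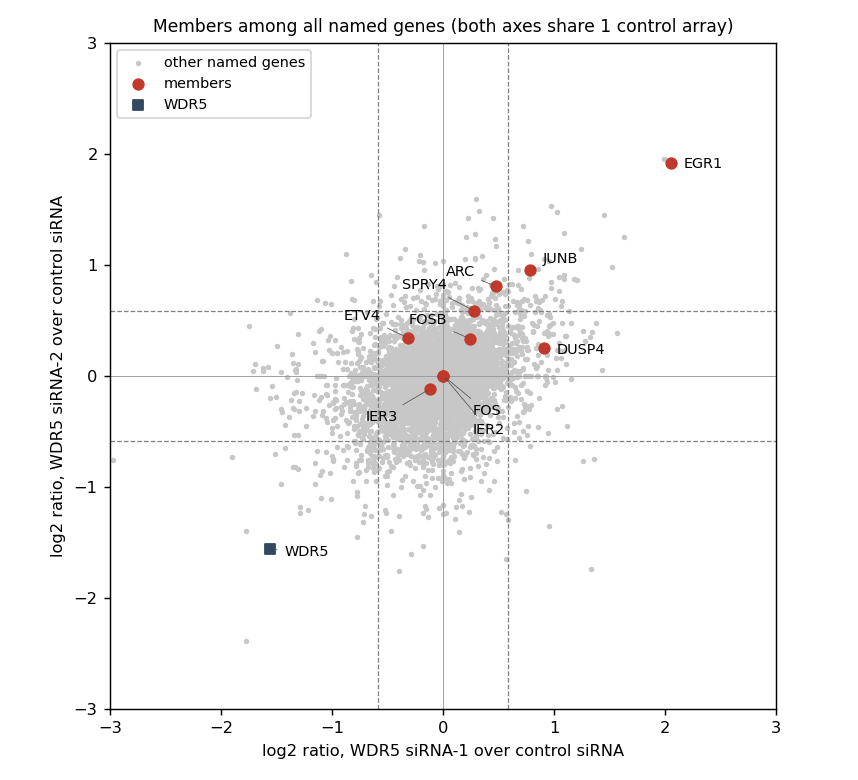
Log2 ratio to control of all named genes (grey), the 10 members (red) and WDR5 (dark square), with WDR5 siRNA-1 on the horizontal and WDR5 siRNA-2 on the vertical axis; dashed lines mark 1.5-fold, both axes share the control array, and 1 gene lies outside the plotted range. EGR1 (2.05 and 1.92) lies apart from the other members, JUNB is past both lines, and FOS and IER2 lie at 0.

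The genes were also compared by their pair of ratios, among 6951 candidates at or above the median level, without the members, small RNA genes, olfactory receptors, antisense transcripts and genes with provisional names. Those whose pair lay nearest that of EGR1, by the distance in log2 units over the 2 ratios to control, were KPNA5 (0.76), SMIM15 (0.80), LUM (1.08), VGF (1.12) and STXBP5 (1.13). The nearest, KPNA5, which encodes an importin alpha, had a ratio of 2.73-fold with either siRNA, from a control level of 8.30 inside the background range. The microRNA gene with the highest smaller ratio, MIR548A1, left out of the candidates and named after its values were seen, was closer to EGR1 than these were, with log2 ratios of 1.99 and 1.95 against 2.05 and 1.92 for EGR1. Around the median pair of the members the candidates were dense, with TMTC3, FABP5, KLF16, POLR1F and PDE8A at distances of 0.016 to 0.019.

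The counts in the pathway lists that follow stand beside the shares of all named genes at least 1.5-fold higher (1.55% with siRNA-1, 1.34% with siRNA-2 and 0.356% with both) or lower (2.77%, 2.37% and 0.571%). In lists of this length a count of 0 is near those shares and is not a result about the list. A level below 9.26, the highest background row, leaves the size of a fold to control uncertain here as well. Of 24 listed transcription factors of this class 18 were measured, and 2 of these, EGR1 and JUNB, were at least 1.5-fold higher with both WDR5 siRNAs. Among the 14 that are not members, 0 were, 5 were tied on all arrays, and the median log2 ratio was 0 with each siRNA. KLF10, a factor induced by TGF-beta, had levels of 9.96, 9.84 and 9.60 with siRNA-1, siRNA-2 and control. JUN, named here after its value was seen, stood at 8.98, 8.97 and 8.98, and EGR3 and EGR4, relatives of EGR1 also named after their values were seen, were tied at 6.05 and 6.20. JUND, likewise named after its value was seen, was the 1 factor at least 1.5-fold lower with siRNA-2, and none was with siRNA-1. It stood at 8.73 with siRNA-1, higher than control, and at 7.68 with siRNA-2, against 8.44 with control.

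Of 27 further immediate-early genes 16 were measured. PLK2, a polo-like kinase gene of active neurons, was the 1 gene at least 1.5-fold higher with both (0.356% of all named genes), at 7.91 and 7.73 against 6.82 with control, log2 ratios of 1.08 and 0.91. SGK1, a kinase gene induced by serum and steroids, had 7.10 and 7.42 against 6.99. The remaining genes of that list that are not members ran from a log2 ratio of -0.29 (HBEGF with siRNA-1) to 0.46 (HBEGF with siRNA-2), with HBEGF, the gene of a growth factor that activates the EGF receptor, named after its values were seen.

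The MAPK phosphatases, all 11 of them measured, leaned to the high side by small amounts. Higher by any amount with both siRNAs were 6, DUSP4 among them, against 13.0% of all named genes. Of the 7442 genes at or above the median level, 1343 were. None of the phosphatases was tied on all arrays, unlike 34.5% of the named genes. Lower with both were 0, and 0 reached 1.5-fold with both, while 1 (DUSP4) reached it with siRNA-1. Their median log2 ratio was 0.21 with siRNA-1 and 0.12 with siRNA-2. Without DUSP4, which was chosen on these ratios, 5 of 10 were higher with both, and the medians were 0.18 and 0.10. DUSP1, itself an immediate-early gene, stood at 9.32 with siRNA-1 and 8.98 with siRNA-2, against 8.78 with control. DUSP5, which acts on nuclear ERK, had 6.61, 6.61 and 6.35, and DUSP10, which acts on JNK and p38, had 10.22, 10.22 and 10.07. DUSP6, the cytoplasmic ERK phosphatase often read as a gauge of ERK activity and named after its values were seen, was nearly flat at 6.79, 6.76 and 6.76, just at the median level of named genes.

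Among the Sprouty family, SPRY2 resembled SPRY4, with levels of 9.65 and 9.93 against 9.42 in control, log2 ratios of 0.23 and 0.51. SPRY3 was tied, and the other 4 genes listed were not analysed here. The ERK output genes held 12 measured members, 0 of them at 1.5-fold with either siRNA. The relatives of ETV4 did not share its opposite directions: ETV1 stood at 9.32, 9.27 and 9.08 and ETV5 at 8.78, 8.77 and 8.57 for siRNA-1, siRNA-2 and control, higher with both. Cyclin D1 (CCND1), named after its values were seen, had 11.35, 11.26 and 11.26.

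Upstream of these genes, the RAS to ERK cascade (16 of 27 measured) had 0 members at 1.5-fold in either direction with either siRNA, a count near the background shares of 1.34% to 2.77%, and medians of 0.01 and 0. Its most shared ratios belonged to GRB2, the adaptor that brings SOS to receptors, at 10.87 and 10.87 against 10.58 in control, SOS2, a RAS exchange factor, at 9.19 and 9.15 against 8.92, and GAB1, a docking protein, at 7.10 and 7.11 against 7.30. The factors that bind immediate-early promoters and their cofactors (12 of 16 measured) also had 0 at 1.5-fold with either siRNA. SRF itself, named after its values were seen, stood at 9.70 with siRNA-1 and 9.60 with siRNA-2, against 9.60 with control. CRTC2, a CREB coactivator, was on the low side (9.04 and 8.98 against 9.26) and MED1, a Mediator subunit, on the high side (12.30 and 12.02 against 11.84).

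Receptor tyrosine kinases, 16 of 22 measured, had medians of 0 with both siRNAs, and 0 passed 1.5-fold with both. RET, the receptor for GDNF family ligands, stood at 9.79 with siRNA-1 and 10.96 with siRNA-2, against 9.47 with control. IGF1R, the receptor for insulin-like growth factors, was at 9.85, 10.06 and 9.31 in the same order, and INSR, the insulin receptor, at 6.67, 7.51 and 7.83. RET and IGF1R thus passed 1.5-fold upward with siRNA-2, and INSR downward with siRNA-1.

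Of the genes induced by neuronal activity and CREB (16 of 19 measured), 2 were at least 1.5-fold higher with both siRNAs, against 0.356% of all named genes. VGF, a neuropeptide precursor gene, stood at 9.93 and 9.84 against 8.69 in control. PER1, a circadian clock gene with CREB input, stood at 8.97 and 8.90 against 8.21. The VGF control level and the PER1 levels on every array lay inside the background range, so the size of these folds is uncertain. The list also held 2 genes at least 1.5-fold lower with siRNA-1 alone (2.77% of all named genes were lower with siRNA-1), both named after their values were seen: HOMER1, a synaptic scaffold gene (6.55 and 7.35 against 7.36), and RGS4, a regulator of G protein signalling (7.32 and 8.07 against 8.12). Its medians were 0 and 0.01.

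**Figure D4:**
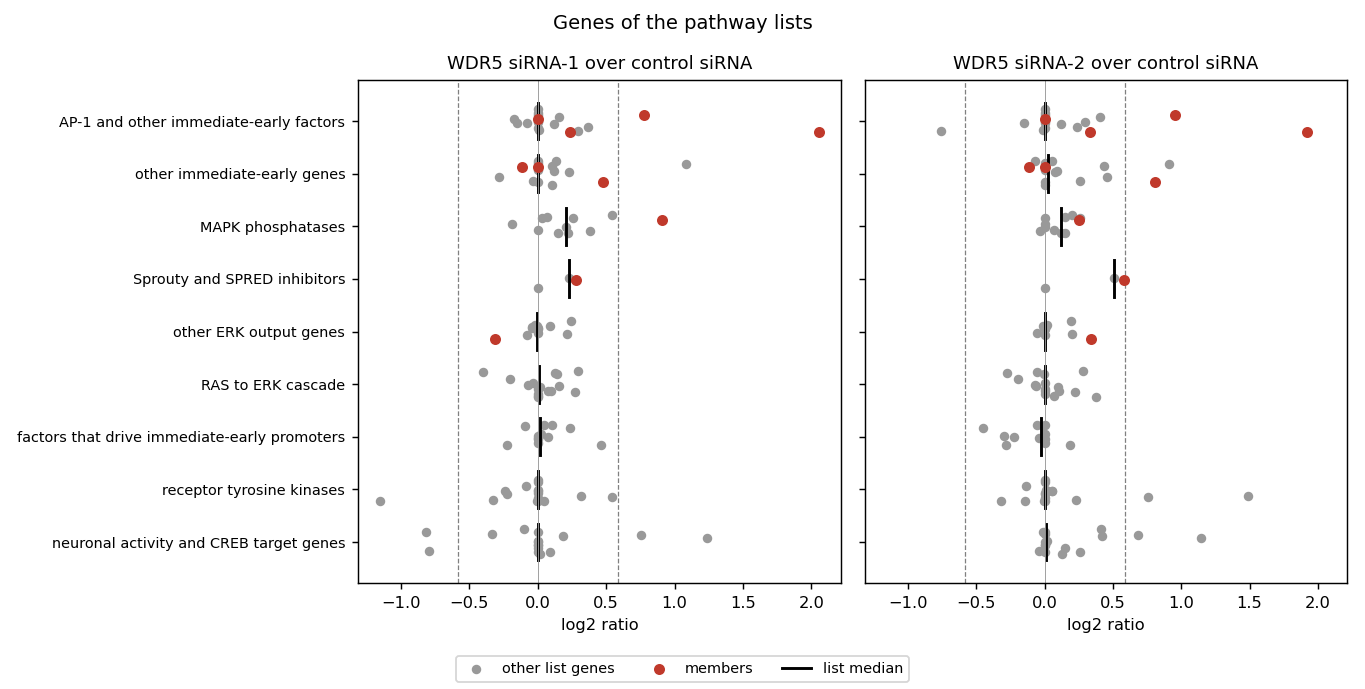
Log2 ratio to control of each measured gene of 9 pathway lists, with WDR5 siRNA-1 on the left and WDR5 siRNA-2 on the right; red points are members, black bars list medians and dashed lines 1.5-fold. Most genes lie within the dashed lines. The median of the MAPK phosphatases is at 0.21 with siRNA-1 and 0.12 with siRNA-2 (0.18 and 0.10 without DUSP4).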

How the data were processed

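Total RNA of 3 BE(2)-C cultures was hybridised to HuGene-2_0-st arrays, 1 per group. The deposited table holds 53617 probe sets. The deposited values were taken as log2 because of the range they cover, and the authors' background correction, normalization and summary are not given in the sources used here. The submitters' processing notes name MAS5 with no step. No scaling was added, and no genome build is given for the table.

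Of its rows 16098 had 1 gene symbol in the platform annotation. The other 37519 were not used, and rows with no symbol and rows with several were not counted apart. All 16098 were matched by Entrez identifier to RefSeq (GRCh38.p14). For the 779 genes with several probe sets, the probe set whose mean over the arrays was highest represents the gene. Every probe set with a member as its only symbol is reported. Log2 ratios are differences between arrays, counted from 1.5-fold. No test was possible. The counting code was run on simulated data with 200 genes changed 2-fold, with low noise and no ties. That checks the code and not the counts on these arrays, where exact ties were common.

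The members and lists were chosen with earlier results of these data known. Up to 4 genes per list are named by their smaller shared ratio, and the 5 nearest EGR1 and the 5 nearest the members' median. Small RNA genes were left out of that rule. Alternatives tried were quantile normalization, median centring, the mean of probe sets, the filter, other fold limits and the mean over members. Python 3.11.15, numpy 2.4.6 and pandas 2.3.3 were used.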

Additional observations from a re-analysis of the deposited data

Results flagged for a closer look

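ETV4 lay on opposite sides of the control array with the WDR5 siRNAs, with log2 ratios to it of -0.31 for siRNA-1 and 0.34 for siRNA-2. The difference was not tested, since each group had 1 array.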

How the results depend on the processing

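Of 100 values recomputed under the alternatives, 89 moved by less than 0.1 on the log2 scale without crossing 1.5-fold (or, for counts, stayed within 1.5 times). Of the ratios past 1.5-fold, 0 changed sign. Most of the 100 came from quantile normalization and median centring, 35 each, with 34 of each among the 89. These moved no member's ratio by more than 0.08 and 0.05, so they could hardly exceed that limit. With the 2-fold limit 0 of 3 values stayed within it, and with the mean over members 0 of 2. With the mean of all probe sets, the log2 ratio of EGR1 was 1.21 with siRNA-1 and 0.99 with siRNA-2, and that of FOSB 0.12 and 0.17; by construction this averages in the second probe set of each. SPRY4 with siRNA-2 passed 1.5-fold with quantile normalization (0.61) and with median centring (0.63), which move the median of named genes by 0.03 and 0.05. At a 2-fold limit 1 member, EGR1, passed with siRNA-1, 1 with siRNA-2 and 1 with both. The mean over members, which EGR1 raises, was 0.43 with siRNA-1 and 0.51 with siRNA-2. No replicate could be left out, and no paired analysis was possible because each group has 1 array. Levels within the range of the background rows make the size of a fold to control uncertain for 9 members, all but SPRY4, of which 6 were in that range on all 3 arrays.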

Other observations

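EGR1 induces its own corepressor gene NAB2, so the 2 NAB genes were looked up after the other results were seen. NAB2 stood at 7.40 with siRNA-1 and 7.32 with siRNA-2, against 7.02 with control, log2 ratios of 0.38 and 0.30. NAB1 stood at 7.86 and 7.39, against 8.04 with control, log2 ratios of -0.18 and -0.65. NAB2 was therefore higher with both WDR5 siRNAs without reaching 1.5-fold, and NAB1 was lower with both and past 1.5-fold with siRNA-2 alone.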
